A study of Homo sapiens with 18 samples.

Results

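The output end of the Hippo pathway was followed through 10 genes in Ewing sarcoma cells after knockdown of the EWSR1::FLI1 fusion. These are the coactivators YAP1 and WWTR1 (which encodes TAZ), the DNA-binding partners TEAD1, TEAD2, TEAD3 and TEAD4, and the target genes CYR61, CTGF, ANKRD1 and AMOTL2. The 10 genes were taken by symbol from the 58336 genes of the deposited tables, where CYR61 and CTGF carry the older names of CCN1 and CCN2. The first 6 are called the factors below, and the other 4 the targets. Messenger RNA was sequenced from 3 established cell lines of this tumour of bone and soft tissue. TC-32 and TC-71 were grown in RPMI medium and A673 in DMEM, each with fetal bovine serum, and all groups carry the EWSR1::FLI1 fusion. Each line was transfected with 20 nM of a control small interfering RNA (siNeg) or of one against FLI1 (siFLI1), with 3 libraries per group and 18 in all. The columns of TC-32 and TC-71 name 48 h, and those of A673 name no time. Where 3 fold changes, medians, counts of genes or ranges follow each other with no line named, they belong to TC-32, TC-71 and A673 in that order.

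In the Hippo pathway, a kinase cascade phosphorylates YAP and TAZ and keeps them out of the nucleus. When the cascade is less active, YAP and TAZ enter the nucleus, bind TEAD proteins on DNA and switch on genes of the matrix, the cytoskeleton and growth. YAP and TAZ are mostly regulated as proteins, through phosphorylation, location and stability, and transcript levels do not measure these.

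TEAD proteins bind a short motif, GGAATG in its core form, and the stretches of the members' promoters that hold it are shown because it is the sequence through which YAP and TAZ reach a gene. RefSeq promoter windows (GRCh38.p14, from 250 bases before to 50 after a start site) were matched for 7 of the 10 genes, with 10 windows among them. The others are TEAD1, TEAD4 and CYR61. GGAATG was searched on both strands (CATTCC on the other), and the 4 windows that hold it are those of YAP1 (chr11:102110197-102110446, plus strand), CTGF (chr6:131951373-131951622, minus strand), ANKRD1 (chr10:90921088-90921337, minus strand) and AMOTL2 (chr3:134374448-134374697, minus strand). Their 250 bases before the start site read as follows, 5′ to 3′ on the gene's strand, with GGAATG or CATTCC in capitals.
YAP1: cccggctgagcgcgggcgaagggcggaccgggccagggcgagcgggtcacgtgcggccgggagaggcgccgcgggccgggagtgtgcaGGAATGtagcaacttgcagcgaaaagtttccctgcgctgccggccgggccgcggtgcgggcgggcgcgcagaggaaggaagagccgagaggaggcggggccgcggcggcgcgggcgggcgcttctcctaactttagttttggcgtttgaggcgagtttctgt
CTGF: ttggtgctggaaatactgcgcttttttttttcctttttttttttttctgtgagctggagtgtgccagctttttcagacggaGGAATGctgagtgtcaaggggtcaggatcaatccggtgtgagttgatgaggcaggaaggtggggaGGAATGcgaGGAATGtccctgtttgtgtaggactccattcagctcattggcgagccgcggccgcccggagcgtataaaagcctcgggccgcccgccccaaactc
ANKRD1: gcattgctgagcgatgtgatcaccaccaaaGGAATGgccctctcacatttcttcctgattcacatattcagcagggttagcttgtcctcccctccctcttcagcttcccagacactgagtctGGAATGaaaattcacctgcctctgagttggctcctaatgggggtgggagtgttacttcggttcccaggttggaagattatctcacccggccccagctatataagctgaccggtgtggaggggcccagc
AMOTL2: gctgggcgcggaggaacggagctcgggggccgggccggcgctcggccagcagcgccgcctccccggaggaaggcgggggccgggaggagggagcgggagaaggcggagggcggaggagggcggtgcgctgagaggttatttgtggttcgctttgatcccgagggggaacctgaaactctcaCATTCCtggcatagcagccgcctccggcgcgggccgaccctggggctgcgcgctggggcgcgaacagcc
Positions count the first base of a match from the start site. The CTGF window held 3 matches, at -169, -104 and -95, and the ANKRD1 window held 2, at -220 and -128. The AMOTL2 window held 1 match on the other strand, at -69, and the YAP1 window held 1, at -162. The other AMOTL2 window and those of WWTR1, TEAD2 and TEAD3 held none. Of all 35116 windows of this length in the table, 14% held at least 1 match, 1.37% at least 2 and 0.128% at least 3. The AP-1 motif was searched in the loose form TGANTCA, with any base at N, a pattern that reads the same on both strands. Among the members it was found in the ANKRD1 window alone, at -195 and apart from both GGAATG matches. The letters there were TGATTCA. Of all windows, 7.71% held this loose pattern. A match is a description of these letters, not a measured binding site.

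Library totals were 24102487 to 33669271 counts (TC-32), 19685354 to 37234528 (TC-71) and 114564479 to 120993595 (A673). FLI1, the targeted gene, had log2 fold changes of -1.03, -1.47 and -2.08. All 6 markers of Ewing sarcoma cells were detected in A673 and TC-32, although PAX7 had only 24 to 35 counts in the siNeg libraries of TC-32, and CD99 was listed at 0 in all TC-71 libraries. Summed over the 6 markers, siNeg libraries held 1729 to 1826, 1928 to 1984 and 2488 to 2584 CPM, and siFLI1 libraries 383 to 394, 403 to 447 and 973 to 987 CPM. CD99 added nothing to the TC-71 sums, while its siNeg means were 330 CPM in TC-32 and 729 CPM in A673. TC-71 alone was counted with Subread, and the cause of its 0 for CD99 was not tested. CPM are counts scaled to library size, corrected for composition by the TMM factor. Most of each siNeg sum was CCND1, with means of 1212 (TC-32), 1437 (TC-71) and 1614 CPM (A673). With siFLI1 its means were 60.5, 274 and 475 CPM in the same order. Each marker that was tested fell in each line, by as little as 0.16 on the log2 scale (CD99 in TC-32). Markers of other cell types were low: the blood marker PTPRC had at most 10 counts, and the summed epithelial and endothelial markers stayed at or under 1.94 and 2.81 CPM. The 3 muscle markers summed to 0.264 to 0.379 CPM with siNeg and 5.48 to 6.92 with siFLI1 in TC-32, to 0 and 0.0539 to 0.123 in TC-71, and to 0 to 0.0332 and 0.363 to 0.483 in A673. Nearly all of this was DES, with MYOD1 at or under 1 count and MYOG at or under 4. The part of these markers in the results was not tested.

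All 4 targets rose with siFLI1 in every line, with a larger median rise than the factors. In TC-32, 9 of the 10 genes rose and 1 (TEAD4) fell, against 41.3% of the 16208 genes tested that rose and 40.1% that fell. In TC-71, 9 rose and 1 (again TEAD4) fell, against 36.8% higher and 35% lower of 17085 genes. In A673, 8 rose, YAP1 fell and TEAD2 did not pass the test, against 36% higher and 35% lower of 18427 genes. A gene was called at an edgeR adjusted p under 0.05, and with this many genes called in each line a call alone sets no gene apart. The sizes differ more: the median log2 fold change of the 6 factors was 0.28, 0.92 and 0.57, that of the 4 targets 1.57, 5.63 and 3.81, and that of all genes tested 0.022, 0.018 and -0.00056. All 4 targets were over 2-fold higher in each line, while 1, 3 and 1 of the 6 factors were, against 22.1%, 14.1% and 13.5% of all genes. In A673, 2 genes lay near that cutoff. Their log2 fold changes were 1.05 for AMOTL2 (0.94 to 1.09 over the alternative settings) and 0.95 for TEAD3 (0.84 to 1.01). Factors and targets also overlapped: TEAD3 in TC-32 (1.42) and WWTR1 in A673 (1.17) rose more than AMOTL2 there (1.26 and 1.05). Of the 10 genes, 7 (WWTR1, TEAD1, TEAD3 and the 4 targets) rose in all 3 lines, as did 19% of the 14233 genes tested in every line, and none fell in all 3, as 18.8% of those genes did. The labels do not say that the 3 libraries of a group came from separate cultures, so each p-value measures the spread between these libraries. In a bulk library, fewer cells of a kind and less RNA per cell cannot be told apart.

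**Figure D1:**
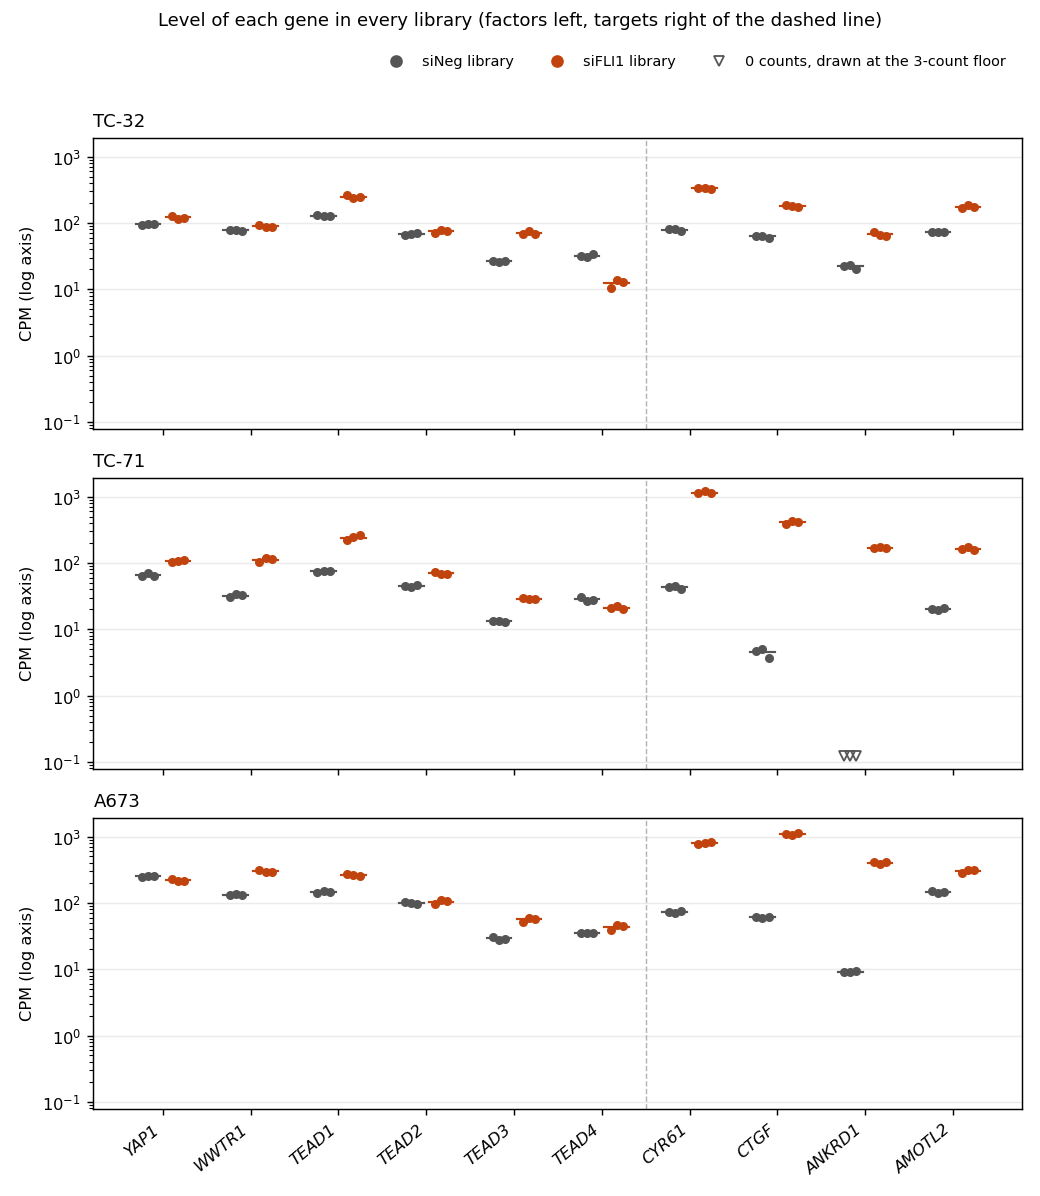
Level of each of the 10 genes in every library, as TMM-scaled CPM on a log axis, for TC-32, TC-71 and A673. Points are libraries (grey siNeg, orange siFLI1) and short bars are group means of 3 libraries. The siFLI1 points of CYR61, CTGF, ANKRD1 and AMOTL2 lie above their siNeg points in every line, and the 3 siNeg libraries of TC-71 have 0 counts of ANKRD1, drawn at the mean floor of 0.123 CPM.

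**Figure D2:**
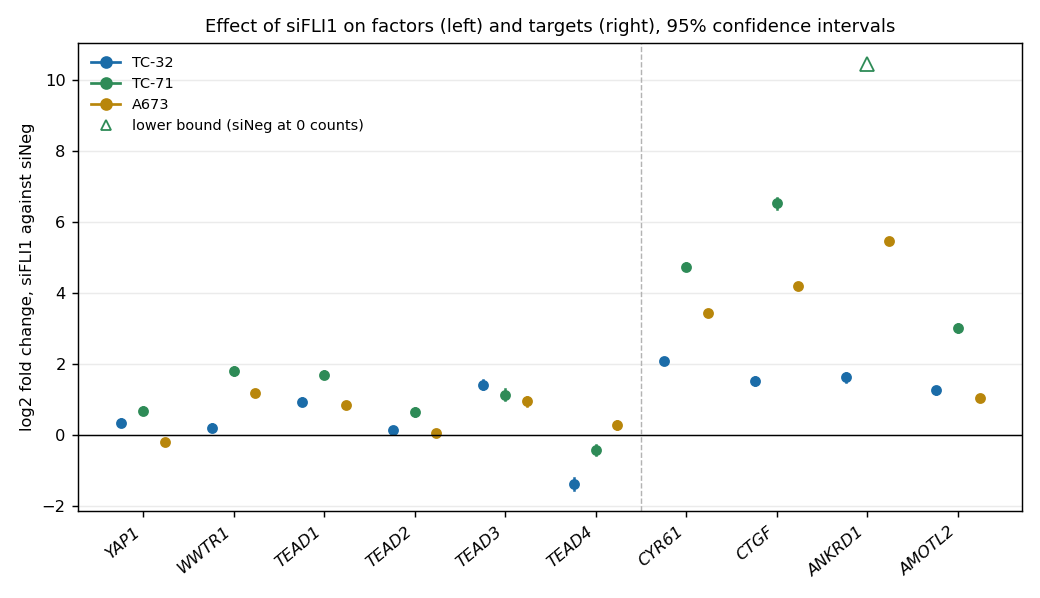
Log2 fold change of each gene, siFLI1 against siNeg, with its 95% confidence interval, by line. The factors lie between -1.37 and 1.81, while the targets lie between 1.05 and 6.52, with ANKRD1 in TC-71 at a lower bound of 10.44 (open triangle).

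Of the coactivators, WWTR1 rose in all 3 lines and YAP1 went in different directions. YAP1 (ENSG00000137693.13, chr11:102110447-102233424, plus strand, here and below in GENCODE release 44 on GRCh38) encodes YAP, the better known of the pair. Its siNeg libraries stood at 94.4, 95.1 and 95.7 CPM in TC-32, and its siFLI1 libraries at 127, 116 and 120 CPM. In TC-71 the values were 64.2, 69.6 and 63.8 CPM with siNeg and 103, 105 and 110 CPM with siFLI1. In both lines every siFLI1 library lay above every siNeg library, and YAP1 rose, with log2 fold changes of 0.35 (SE 0.0479, edgeR adjusted p = 4.39e-07) and 0.69 (SE 0.0504, edgeR adjusted p = 3.97e-13). In A673 the levels were higher, with siNeg libraries at up to 252 CPM and siFLI1 libraries at 225, 215 and 214 CPM. Scaled to exon length, the A673 siNeg libraries stood at 39.1, 39.9 and 39.5 CPM per kilobase. The A673 siFLI1 libraries stood at 35.6, 34.1 and 33.8 CPM per kilobase. These scaled values cannot be set beside the CPM of TC-32 and TC-71. Here every siFLI1 library was the lower, and YAP1 fell by 0.19 on the log2 scale (SE 0.0337, edgeR adjusted p = 0.000125).

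WWTR1 (ENSG00000018408.14, chr3:149517235-149736714, minus strand) encodes TAZ, the paralogue of YAP. It stood at 77.8, 78.4 and 76.7 CPM with siNeg and 94.6, 88.1 and 86.8 CPM with siFLI1 in TC-32. In TC-71 it stood at 30.6, 33.7 and 32.4 CPM with siNeg and 104, 118 and 115 CPM with siFLI1. The A673 values were 132, 135 and 130 CPM with siNeg and 311, 294 and 291 CPM with siFLI1. The groups did not overlap in any line, but the gap was narrow in TC-32 and wide in the other 2 lines. The rise was 0.21 in log2 units for TC-32 (SE 0.0501, edgeR adjusted p = 0.000511), 1.81 for TC-71 (SE 0.0581, edgeR adjusted p = 1.04e-21) and 1.17 for A673 (SE 0.0365, edgeR adjusted p = 8.49e-13).

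With WWTR1 and YAP1 moving by different amounts, their ratio shifted. Per kilobase of exon, WWTR1 stood at 0.617 ± 0.00992 of YAP1 in siNeg libraries of TC-32 and at 0.562 ± 0.0127 in siFLI1 libraries (SD, n = 3). In TC-71 the ratio was 0.37 ± 0.0123 with siNeg and 0.803 ± 0.0446 with siFLI1, and in A673 it was 0.401 ± 0.00602 and 1.04 ± 0.00864. No siNeg and siFLI1 libraries overlapped in this ratio in any line, and the direction in TC-32 was opposite to that in the other 2 lines. With 3 libraries against 3, an exact two-sided permutation test cannot go below p = 0.1, which each of these 3 comparisons reached (adjusted p = 0.106 over 18 such tests of ratios, shares and sums). The ratio depends on the gene length used. Per kilobase of the longest transcript it was 0.875 with siNeg and 0.797 with siFLI1 in TC-32. It was then 0.525 and 1.14 in TC-71, and 0.569 and 1.47 in A673. Each line kept its direction, but WWTR1 then stood above YAP1 in TC-71 with siFLI1. Genes of the opposite strand overlap 10.13% of the exon bases of YAP1 and 9.05% of those of WWTR1, but their own counts were at most 0.292% of those of YAP1 and 1.46% of those of WWTR1 in any library.

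TEAD1 and TEAD3 rose in all 3 lines, TEAD2 rose in 2 lines, and TEAD4 fell in 2 lines and rose in the third. The 4 genes encode paralogous DNA-binding proteins that recruit YAP and TAZ. TEAD1 (ENSG00000187079.16, chr11:12674421-12944737, plus strand) stood at 126 to 132 CPM with siNeg and 234 to 260 CPM with siFLI1 in TC-32. The TC-71 libraries held 73.3 to 75.3 and 220 to 260 CPM, and the A673 libraries 143 to 151 and 257 to 273 CPM. Its siFLI1 levels reached similar values in the 3 lines from siNeg levels that were lowest in TC-71. TEAD1 rose by 0.94 (SE 0.0462, edgeR adjusted p = 1.48e-15), 1.70 (SE 0.0523, edgeR adjusted p = 1.85e-21) and 0.85 (SE 0.0371, edgeR adjusted p = 4.07e-11).

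TEAD3 (ENSG00000007866.19, chr6:35473597-35497079, minus strand) was the factor that rose most in TC-32, from 27, 25.7 and 27.1 CPM to 68.4, 75.5 and 69 CPM. TC-71 libraries stood at 13.3, 13.1 and 12.9 CPM with siNeg and 29.2, 28.9 and 28.8 CPM with siFLI1. For A673 the values were 31, 28 and 28.5 CPM with siNeg and 51.1, 59.9 and 57.8 CPM with siFLI1. The groups stood well apart in each line. The log2 fold changes were 1.42 (SE 0.0602, edgeR adjusted p = 7.86e-17), 1.14 (SE 0.0726, edgeR adjusted p = 1.48e-14) and 0.95 (SE 0.0592, edgeR adjusted p = 2.41e-09).

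TEAD2 (ENSG00000074219.13, chr19:49340595-49362457, minus strand) moved least of the 10 genes in TC-32 and A673, while in TC-71 TEAD4 moved less. It rose in TC-71, from 44.4, 42.6 and 46 CPM to 71.7, 67.4 and 69 CPM, with no overlap (log2 fold change 0.64, SE 0.0542, edgeR adjusted p = 9.96e-12). In TC-32 it stood at 65.6, 67.7 and 70.1 CPM with siNeg and 70, 78.6 and 74.8 CPM with siFLI1, so that the lowest siFLI1 library lay just under the highest siNeg library. The log2 fold change there was 0.14 (SE 0.0541, edgeR adjusted p = 0.0244). That call was lost without siNeg replicate 1 (log2 fold change 0.10), siNeg replicate 2 (0.12), siFLI1 replicate 2 (0.089) or siFLI1 replicate 3 (0.13), and with no filter on low counts (0.12). In A673 the siNeg libraries stood at 103, 99.9 and 97 CPM and the siFLI1 libraries at 96.7, 111 and 105 CPM, which overlap. The difference did not pass the test there (log2 fold change 0.061, 95% confidence interval -0.032 to 0.15, edgeR adjusted p = 0.263), though it did without siFLI1 replicate 1 (0.11, edgeR adjusted p = 0.00575), and with library size alone the value was -0.048.

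TEAD4 (ENSG00000197905.8, chr12:2959330-3040676, plus strand) was the one factor that fell by more than 2-fold. In TC-32 it stood at 31.6, 30.9 and 34.2 CPM with siNeg and at 10.5, 13.7 and 12.9 CPM with siFLI1. In TC-71 it stood at 30.1, 27 and 27.9 CPM with siNeg and 21, 22.3 and 20.4 CPM with siFLI1. Every siFLI1 library was below every siNeg library in these lines, with a wider gap in TC-32. The log2 fold changes were -1.37 for TC-32 (SE 0.0844, edgeR adjusted p = 2.46e-13) and -0.42 for TC-71 (SE 0.0705, edgeR adjusted p = 5.22e-06). It rose in the A673 line, from 35.4, 35 and 35.7 CPM to 39.1, 46.7 and 44.5 CPM (log2 fold change 0.29, SE 0.0561, edgeR adjusted p = 0.000291). The siNeg levels in the 3 lines were close to each other, and it was the siFLI1 levels that lay far apart.

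These changes left each line with another mix of TEAD transcripts. Summed per kilobase of exon, the 4 TEAD genes stood at 57.6 ± 1.44 CPM per kilobase with siNeg and 76.7 ± 2.12 with siFLI1 in TC-32 (SD, n = 3), at 38.6 ± 1.02 and 64.6 ± 1.18 in TC-71, and at 72.3 ± 1.2 and 97.1 ± 4.86 in A673. The share of TEAD4 in that sum was 24.6% ± 0.719 with siNeg and 7.08% ± 0.795 with siFLI1 in TC-32, and 32.3% ± 1.17 and 14.5% ± 0.786 in TC-71. In A673 it was 21.5% ± 0.48 and 19.6% ± 0.799, so that the share was smaller although the level rose. The share of TEAD1 was larger with siFLI1 in each line, at 20.8% against 30%, 18% against 34.8% and 18.9% against 25.4% in the 3 lines in that order. TEAD3 took a larger share as well, with its widest gap in TC-32 (15.1% against 30.3%). TEAD2, the most abundant TEAD gene per kilobase in siNeg libraries of every line, had a share of 39.5% against 32.6% in TC-32 and 46.4% against 36% in A673, without overlap, while in TC-71 its groups met at 37.9% (38.6% against 36%). Each of these differences had the smallest p that the exact two-sided permutation test allows, p = 0.1, except TEAD2 in TC-71 (p = 0.2).

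**Figure D3:**
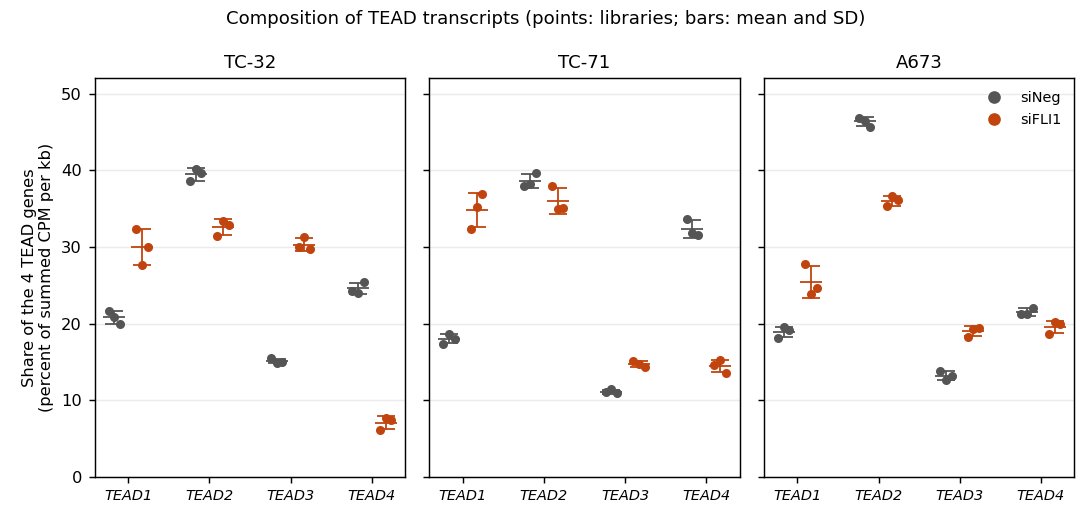
Share of each TEAD gene in the summed level of the 4 (percent of CPM per kilobase of exon), for siNeg (grey) and siFLI1 (orange) libraries of each line. Points are libraries and bars are the mean and SD of 3. TEAD4 goes from 24.6% to 7.08% in TC-32 and from 32.3% to 14.5% in TC-71, with a small gap in A673 (21.5% and 19.6%), and TEAD1 is larger with siFLI1 in every line.

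The targets rose in all 3 lines, each by the largest amount in TC-71, and 3 of them by the smallest amount in TC-32 (AMOTL2 in A673). CYR61 (ENSG00000142871.16, chr1:85580761-85584589, plus strand) encodes a secreted matricellular protein that binds integrins. It stood at 79.7, 81.7 and 75.3 CPM with siNeg and 337, 340 and 323 CPM with siFLI1 in TC-32. In TC-71 it stood at 43.4, 44.5 and 40.7 CPM with siNeg and 1116, 1196 and 1113 CPM with siFLI1. The A673 values were 73.1, 70.3 and 75.5 CPM with siNeg and 765, 789 and 830 CPM with siFLI1. Libraries of one group lay close together beside these gaps. CYR61 rose 4.23-fold in TC-32 (log2 fold change 2.08, SE 0.046, edgeR adjusted p = 1.38e-22), 26.7-fold in TC-71 (4.74, SE 0.0509, edgeR adjusted p = 2.38e-33) and 10.9-fold in A673 (3.44, SE 0.0424, edgeR adjusted p = 5.51e-17).

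CTGF (ENSG00000118523.5, chr6:131948176-131951372, minus strand), whose promoter window above held 3 GGAATG matches, encodes another secreted protein of the same family. In TC-32 it stood at 64.1, 64.6 and 58.8 CPM with siNeg and 188, 177 and 174 CPM with siFLI1. In TC-71 it was low with siNeg, at 4.75, 5.07 and 3.68 CPM, and stood at 384, 426 and 411 CPM with siFLI1. In A673 it stood at 60.2, 59.5 and 61.6 CPM with siNeg and 1095, 1066 and 1119 CPM with siFLI1. The siNeg levels of TC-32 and A673 were alike, and their siFLI1 levels were far apart. CTGF rose 2.87-fold in TC-32 (log2 fold change 1.52, SE 0.0507, edgeR adjusted p = 5.69e-19), 91.6-fold in TC-71 (6.52, SE 0.0747, edgeR adjusted p = 4.19e-31) and 18.1-fold in A673 (4.18, SE 0.037, edgeR adjusted p = 3.26e-18). LINC01013 shares 11.89% of the exon bases of CTGF on the opposite strand, and its counts were at most 0.781% of those of CTGF in any library.

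ANKRD1 (ENSG00000148677.6, chr10:90912096-90921087, minus strand) encodes an ankyrin repeat protein of the nucleus and the sarcomere that is widely used as a readout of YAP and TAZ. In TC-32 it stood at 22.5, 23.2 and 20.5 CPM with siNeg and 72.5, 66.5 and 64.5 CPM with siFLI1. In A673 it stood at 9.17, 9.15 and 9.23 CPM with siNeg and 412, 385 and 411 CPM with siFLI1. In TC-71 no siNeg library held a count, while the siFLI1 libraries held 4042, 4575 and 6294 counts, or 165, 175 and 170 CPM. A count of 0 allows up to 3 counts, here 0.104 to 0.152 CPM in the siNeg libraries, a limit that covers counting error only. Against that floor in each library ANKRD1 was at least 1387-fold higher with siFLI1 in TC-71 (edgeR adjusted p = 6.8e-31). It rose 3.07-fold in TC-32 (log2 fold change 1.62, SE 0.0652, edgeR adjusted p = 2.74e-17) and 43.8-fold in A673 (5.45, SE 0.045, edgeR adjusted p = 1.8e-18).

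AMOTL2 (ENSG00000114019.14, chr3:134355347-134375479, minus strand) encodes an angiomotin-family protein that binds YAP and retains it in the cytoplasm, so it is both a target and a negative regulator. It stood at 73.2, 73.2 and 72.9 CPM with siNeg and 167, 186 and 171 CPM with siFLI1 in TC-32, at 20.5, 19.3 and 20.7 CPM and 162, 172 and 157 CPM in TC-71, and at 150, 142 and 147 CPM and 283, 313 and 312 CPM in A673. As with TEAD1, the siFLI1 levels of TC-32 and TC-71 were close together while the siNeg level of TC-71 was far lower. AMOTL2 rose 2.39-fold in TC-32 (log2 fold change 1.26, SE 0.0489, edgeR adjusted p = 1.31e-17), 8.09-fold in TC-71 (3.02, SE 0.0565, edgeR adjusted p = 2.2e-27) and 2.06-fold in A673 (1.05, SE 0.0432, edgeR adjusted p = 2.14e-11). It had the smallest rise of the 4 targets in each line.

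Set in order per kilobase of exon, the targets stood at the top with siFLI1 and were spread through the order with siNeg. With siNeg, the highest members were CTGF in TC-32 (26.7 ± 1.38 CPM per kilobase, SD, n = 3), TEAD2 in TC-71 (14.9 ± 0.569) and YAP1 in A673 (39.5 ± 0.435). The lowest were TEAD3 in TC-32 (8.72 ± 0.252) and ANKRD1 in TC-71 (0 in each library) and in A673 (5.13 ± 0.0235). With siFLI1, the 4 targets held the first 4 places in each line, with AMOTL2 the lowest of them. CYR61 led in TC-32 (90.2 ± 2.51) and TC-71 (309 ± 12.7), followed by CTGF (76.8 ± 3.19 and 174 ± 9.05), while CTGF led in A673 (468 ± 11.3). ANKRD1 (225 ± 8.5) and CYR61 (215 ± 8.84) overlapped in A673, and in TC-32 AMOTL2 (26.9 ± 1.49) overlapped with TEAD2 (25 ± 1.43), TEAD2 with TEAD3 (23.3 ± 1.29), and TEAD3 with TEAD1 (23 ± 1.22). Other neighbours that overlapped with siFLI1 were TEAD2 and TEAD1, and TEAD3 and TEAD4, in TC-71, and in A673 WWTR1 and TEAD2, TEAD2 and YAP1, and TEAD4 and TEAD3. With siNeg, overlap was found for TEAD2 and CYR61, YAP1 and TEAD4, and ANKRD1 and TEAD1 in TC-32, for TEAD4, CYR61 and YAP1 in TC-71, and for WWTR1 and TEAD4 in A673. Other neighbours in the order did not overlap. The factors stayed within a narrower span, from 5.44 ± 0.736 (TEAD4 in TC-32) to 35.7 ± 1.31 (WWTR1 in A673) with siFLI1. Per kilobase of the longest transcript, the order differed in places. TEAD2 (27.8) then led in TC-32 with siNeg, above CTGF (26.7). The 3 tables were made separately, so levels are set side by side across lines without a test.

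One edgeR model of all 18 libraries, with interaction contrasts, tested whether siFLI1 changed a gene by different amounts in 2 lines. The differences from that model are scaled jointly, so they can depart slightly from the difference of the 2 log2 fold changes above. Between TC-32 and TC-71, all 10 genes differed, against 53.6% of 19591 genes tested. The response was more positive in TC-71 for 9 of them. TC-32 minus TC-71, these differences ran from -0.35 (YAP1) to -5.00 (CTGF; 95% confidence interval -5.18 to -4.82) in log2 units, with ANKRD1 at -8.82 or further from 0, beside a median of -0.11 over all genes. TEAD3 was the 1 gene whose response was more positive in TC-32, with a difference of 0.27 (95% confidence interval 0.081 to 0.45, edgeR adjusted p = 0.0173). That call was lost without TC-32 siNeg replicate 2 (0.23), TC-32 siFLI1 replicate 2 (0.22) or TC-71 siNeg replicate 1 (0.25), and with limma-voom (0.27).

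Between TC-71 and A673, all 10 genes differed as well, against 51.7% of all genes, and 9 had the more positive response in TC-71. TC-71 minus A673, the differences ran from 0.23 (TEAD3; edgeR adjusted p = 0.028) to 2.38 (CTGF; 95% confidence interval 2.20 to 2.56), and at least 4.98 for ANKRD1, beside a median of 0.075 over all genes. TEAD4 went the other way, with a difference of -0.68 (edgeR adjusted p = 3.98e-07). The TEAD3 call was lost without TC-71 siNeg replicate 3 (0.24), A673 siNeg replicate 1 (0.20) or A673 siFLI1 replicate 1 (0.18). It was also lost with RLE factors (0.19), no filter on low counts (0.20), DESeq2 (0.19), limma-voom (0.23) and only the 12 libraries of these lines (0.16).

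Between TC-32 and A673, 8 of the 10 genes differed, against 62.1% of all genes, and the direction was mixed. CYR61, CTGF and ANKRD1 rose more in A673, with differences (TC-32 minus A673) of -1.33, -2.62 and -3.80, and WWTR1 and TEAD4 were the more positive there as well (-0.93 and -1.63). YAP1, TEAD3 and AMOTL2 were the more positive in TC-32, by 0.57, 0.50 and 0.24 (for AMOTL2, 95% confidence interval 0.12 to 0.37, edgeR adjusted p = 0.00146). The responses of TEAD1 (difference 0.13, 95% confidence interval -0.0082 to 0.27, edgeR adjusted p = 0.11) and TEAD2 (0.11, -0.032 to 0.25, edgeR adjusted p = 0.194) were not shown to differ. The TEAD1 difference passed the test without TC-32 siFLI1 replicate 2 (0.18) or A673 siFLI1 replicate 1 (0.16), and with a minimum mean of 10 counts (0.16). With library size alone both passed (0.25 for TEAD1 and 0.23 for TEAD2). In these contrasts a line cannot be told apart from its table, nor A673 from its medium and depth. The time of A673 is not named, so equal times are not shown. The response of FLI1 itself differed by 0.43 (TC-32 minus TC-71), 0.65 (TC-71 minus A673) and 1.08 (TC-32 minus A673). The part of this in the differences of the 10 genes was not tested. The tables of TC-32 and A673 name the same counting program, so that the program cannot be told apart from the line only in the contrasts with TC-71.

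Outside the 10 genes, the upstream part of the pathway held calls in both directions in each line. Of 16 Hippo kinases and regulators, 10 rose and 6 fell in TC-32, 11 rose, 2 fell and 3 did not pass the test in TC-71, and 6 rose, 4 fell and 6 did not pass in A673, where 9 fell with library size alone in place of TMM. Of all genes tested, 41.3%, 36.8% and 36% rose and 40.1%, 35% and 35% fell. The median log2 fold changes of the 16 were 0.24, 0.33 and -0.011. In all 3 lines, 4 of the 16 genes rose, beside 19% of all genes tested in every line. FRMD6, a FERM-domain protein that acts above the kinases, rose most, with log2 fold changes of 4.10, 3.05 and 2.21. LATS2, a kinase that phosphorylates YAP and TAZ and is itself one of their target genes, rose by 0.87, 1.11 and 0.94. NF2, which encodes the scaffold merlin, rose by 0.25, 0.56 and 1.76, and the kinase TAOK2 by 0.28, 0.13 and 0.34.

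Opposite calls in different lines were made for 5 of the 16 regulators, and for 22.7% of the 14233 genes tested in every line. The MST kinase STK3 fell in TC-32 (-0.35) and rose in TC-71 (0.60) and A673 (0.31), and TAOK1 fell in TC-32 (-0.18) and rose in TC-71 (0.26). TAOK3 rose in TC-32 (0.36) and TC-71 (1.01) and fell in A673 (-0.15). The giant cadherins FAT4 and DCHS1, which bind each other between cells, also rose in TC-32 (0.22 and 0.91) and TC-71 (0.29 and 0.77) and fell in A673 (-0.99 and -0.21). These are log2 fold changes that passed the edgeR test.

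Cofactors that bind YAP or TEAD proteins and mostly oppose YAP were higher in each line where they could be tested. Of the 7 listed, VGLL1 and VGLL2 were too low to be tested, at no more than 2 counts in any library, and the other 5 rose in each line, with median log2 fold changes of 1.03, 1.43 and 0.53. The share of all genes that rose was 41.3%, 36.8% and 36%, and 19% rose in all 3 lines. The angiomotins AMOT (1.03, 1.43 and 0.59) and AMOTL1 (1.27, 1.42 and 0.53) rose beside AMOTL2. PTPN14, a phosphatase that binds YAP, rose by 0.72, 1.06 and 0.22, and VGLL4, which competes with YAP for TEAD proteins, by 0.92, 1.74 and 0.42. VGLL3 rose by 3.22 in TC-32, from only 3 to 7 counts in the siNeg libraries, and by 3.22 in TC-71 and 0.55 in A673.

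A published signature of YAP and TAZ activity holds 22 genes, among them the 4 targets above. Of the other 18, 17 were tested in each line, and 16, 15 and 16 of them rose, beside 41.3%, 36.8% and 36% of all genes tested. None fell in A673 except 1 with library size alone, and 1 fell in each of the other lines. The median log2 fold changes were 1.09, 2.44 and 2.74. Of these, 13 rose in all 3 lines, as did 19% of all genes tested in every line, and 2 of the 18, LATS2 and PTPN14, also stand in the lists above. NT5E, the surface ectonucleotidase CD73, rose by 2.02, 7.41 and 4.24, and the growth factor gene TGFB2 by 2.33, 5.97 and 5.39. In TC-71 these rises started from only 12 to 19 counts (NT5E) and 10 to 14 counts (TGFB2) in the siNeg libraries. The receptor tyrosine kinase AXL rose by 1.76, 3.15 and 6.09, and F3, which encodes tissue factor, by 0.58, 2.69 and 4.55. MYOF, a membrane repair protein, rose by 0.75, 6.95 and 2.79, and the matrix gene CCDC80, which rose most in TC-32, by 5.34, 3.21 and 2.88. The rise of MYOF in TC-71 started from 44 to 50 counts in the siNeg libraries.

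Another 5 of the signature rose in each line. They are CRIM1 (1.29, 3.33 and 2.74), DOCK5 (2.10, 1.52 and 1.44), ARHGEF17 (1.55, 2.32 and 0.76), NUAK2 (0.77, 2.79 and 3.42) and RBMS3 (1.09, 2.44 and 1.91), beside LATS2 and PTPN14 given above. NUAK2 started in TC-71 from only 3 to 9 counts in the siNeg libraries, and DOCK5 in TC-32 from 14 to 22. GADD45A, a stress-response gene, fell in TC-32 (-0.24) and rose in TC-71 (1.03) and A673 (2.11). The only signature gene that fell in TC-71 was FOXF2 (-0.46, edgeR adjusted p = 0.0288), which had 49 to 90 counts in all libraries of that line and was no longer called without TC-71 siNeg replicate 2, siFLI1 replicate 1 or siFLI1 replicate 2, or with DESeq2 or limma-voom (0 genes called lower in each case).

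**Figure D4:**
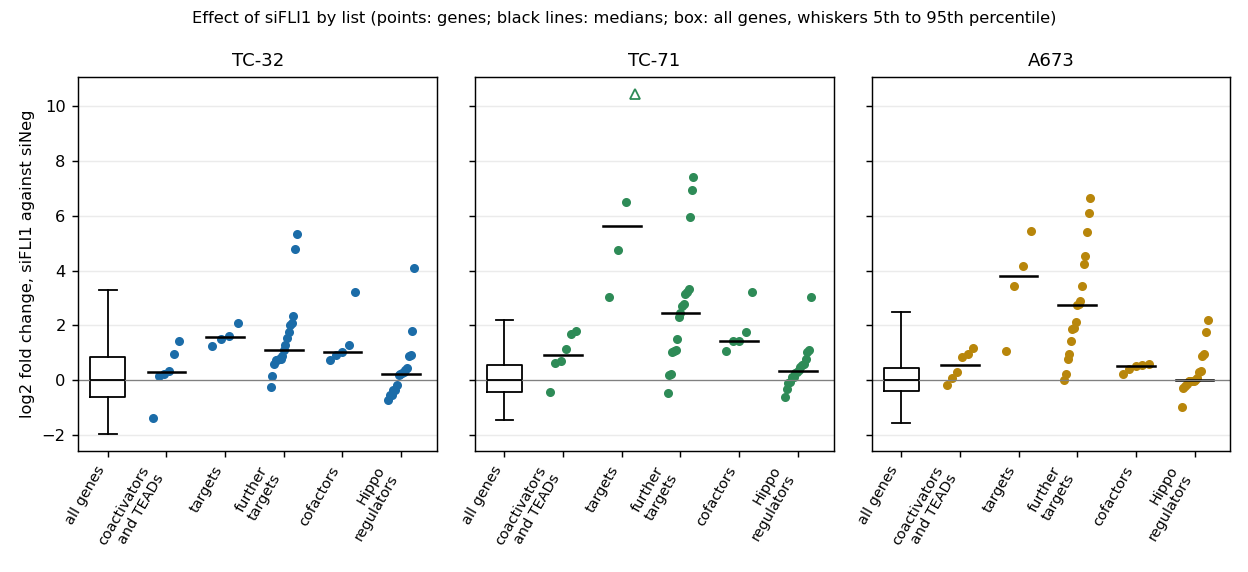
Log2 fold change, siFLI1 against siNeg, of the tested genes of each list in TC-32, TC-71 and A673, beside the box of all genes tested (median, quartiles and whiskers from the 5th to the 95th percentile). Points are genes, black lines are medians, and the open triangle is the lower bound of ANKRD1 in TC-71. The medians of the 4 targets (1.57, 5.63 and 3.81) and of the 17 further signature genes tested (1.09, 2.44 and 2.74) lie above those of the factors (0.28, 0.92 and 0.57) and of the Hippo regulators (0.24, 0.33 and -0.011).

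The genes whose responses were most like those of 4 members were found by the distance between log2 fold changes over the 3 lines, among 11066 genes whose mean log2 CPM was 1 or more in each line. Closest to YAP1 were GSDMD (distance 0.0592), ZNF44 (0.067) and SMARCA2 (0.0775), and closest to WWTR1 were NLRC5 (0.0744), RAB3B (0.14) and HIPK2 (0.19). CYR61 and CTGF had no neighbour as near. Their log2 fold changes were larger in each line than those of YAP1 and WWTR1, and the distance was not scaled for size. The distances therefore cannot be compared between these members. RND3 (0.907), RP4-621F18.2 (0.998) and GPNMB (1.19) were closest to CYR61. NT5E (1.02), CSDC2 (1.39) and KRT80 (1.5) were closest to CTGF, and NT5E is the signature gene described above. With 3 lines, a small distance describes 3 values and no more.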

How the data were processed

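Transcript levels of 10 genes were compared between siFLI1 and siNeg in 3 Ewing sarcoma lines, with 3 libraries per group. The authors' deposited tables hold expected counts for TC-32 and A673 (RSEM, by the table names). The table deposited for TC-71 holds counts (Subread, by its name). Per the submitters' processing notes, cutadapt 4.4, STAR 2.7.3, featureCounts, Subread 2.0.3 and limma 3.38.3 were used, with GRCh38. Which step each served, the annotation release and the strand setting of the counting are not given in the sources used here. The columns of TC-32 and TC-71 do not name the line, which rests on the table's name. The libraries were made with a stranded kit, per the labels' protocols.

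Here, expected counts were rounded, 45 second copies of genes on the Y chromosome were added to their X copies, and each line was fitted in R 4.3.3 with edgeR 4.0.16 (filterByExpr, TMM, robust quasi-likelihood F-test, Benjamini-Hochberg over all genes tested, called at an adjusted p under 0.05). Log2 fold changes carry edgeR's default shrinkage, SEs do not. Differences between lines were interaction contrasts in one model of 18 libraries. Ratios and shares were tested by exact two-sided permutation of libraries. Lengths, positions and overlaps came from GENCODE release 44 (57754 of 58336 genes found), promoters from RefSeq. A fold against a group at 0 used a floor of 3 counts per library. The fits were run on simulated data in which far fewer genes changed than were called here, with as many raised as lowered. The simulation therefore did not test the scaling under a response as broad as this one. As alternatives, DESeq2 1.42.0 and limma-voom (limma 3.58.1) were run, as were RLE factors, library size without factors, no low-count filter, a minimum mean of 10 counts, unrounded counts, a replicate block, leaving out each library, only the 12 libraries of 2 lines, and transcript length. Unrounded counts between lines were added after seeing the data. The text names all 10 members, the list genes called in the same direction in all 3 lines or in opposite directions, and the 3 nearest genes of 4 members. Members and lists were chosen with earlier results of these data known. Total counts from 19685354 to 120993595 per library set the precision. The lowest correlation between replicates was 0.9915.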

Additional observations from a re-analysis of the deposited data

Results flagged for a closer look

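Each of the following is a difference between 2 lines in the response to siFLI1, from the edgeR interaction test, and 28 of the 30 comparisons made passed it. For TC-32 minus TC-71, in log2 units, the differences were -0.35 for YAP1, -1.60 for WWTR1, -0.76 for TEAD1, -0.51 for TEAD2, 0.27 for TEAD3 and -0.96 for TEAD4. For the targets they were -2.66 for CYR61, -5.00 for CTGF, -8.82 for ANKRD1 (a bound, so at least as far from 0) and -1.76 for AMOTL2.

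For TC-71 minus A673, the differences were 0.92 for YAP1, 0.67 for WWTR1, 0.89 for TEAD1, 0.62 for TEAD2, 0.23 for TEAD3 and -0.68 for TEAD4. For the targets they were 1.33 for CYR61, 2.38 for CTGF, 4.98 for ANKRD1 (a bound) and 2.01 for AMOTL2. For TC-32 minus A673, they were 0.57 for YAP1, -0.93 for WWTR1, 0.50 for TEAD3, -1.63 for TEAD4, -1.33 for CYR61, -2.62 for CTGF, -3.80 for ANKRD1 and 0.24 for AMOTL2. A line cannot be told apart from its table nor, in the contrasts with TC-71, from the counting program. A673 also cannot be told apart from its medium and depth, and its time is not named. FLI1 itself fell by different amounts in the lines, as given above.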

How the results depend on the processing

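Of 410 recomputed member effects within a line, 403 kept their direction and their side of the threshold. The exceptions were all TEAD2: 5 in TC-32 and 1 in A673 are given with that gene, and with library size alone its log2 fold change in A673 was -0.048 (not called; 0.061 with TMM). Of 810 recomputed differences between lines, 792 kept both. The others were TEAD3, which lost its call in 4 settings between TC-32 and TC-71 (limma-voom and 3 left-out libraries) and in 9 between TC-71 and A673 (0.19 with RLE factors and with DESeq2, 0.16 with only the 12 libraries of both lines), and TEAD1 and TEAD2 between TC-32 and A673, which gained one (0.25 and 0.23 with library size alone). Library size alone also moved the median of all genes in A673 to -0.11 and gave 9 Hippo regulators (4 with TMM) and 1 further target (0 with TMM) called lower there. The count of further targets called lower in TC-71 was 0 with DESeq2 and with limma-voom, and ranged from 0 to 1 over left-out libraries. The causes were not tested. The 44 of 60 levels per kilobase that moved by more than 1 SD with the longest transcript in place of the exon union rose through its shorter length. The WWTR1 to YAP1 ratios and the order of the members changed with them, as given with those results.

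The counts showed no sign that the replicate numbers pair the libraries, although how the libraries were handled is not stated. Once each gene's group mean was taken off its log2 CPM, siNeg and siFLI1 libraries of the same number correlated between -0.0782 and 0.0424. With the replicate number as a block, 13033, 12048 and 12422 genes were called (TC-32, then TC-71, then A673), and the counts of members called were 10, 10 and 9 as before. The one member call that the block ended was the TEAD3 difference between TC-71 and A673 (0.24, edgeR adjusted p = 0.0636). Depth limits ANKRD1 in TC-71 to a bound.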

Other observations

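Tested genes were paired by symbol with the RefSeq promoter windows, so genes with another RefSeq symbol were left out, CTGF (there CCN2) among them. Among the genes so paired, those with more GGAATG matches had the higher median response in TC-32 and TC-71, as a description with no test. In TC-32 the median log2 fold change was -0.065 over 8984 genes with no match, 0.052 over 1484 with 1, 0.18 over 130 with 2 and 0.95 over 9 with 3 or more. In TC-71 the medians were 0.0068, 0.056, 0.11 and 0.74, the last over 8 genes. In A673 they were 0.01, 0.055, -0.0039 and 0.45, so that there the genes with 2 matches broke the order. Of the genes with 1 match, 24%, 16.8% and 16.9% were over 2-fold higher (TC-32, then TC-71, then A673), against 19.1%, 13% and 13% of those with none. Of the genes with 2 matches, 23.1%, 15.3% and 22.9% were, which is under the share with 1 match in TC-32 and TC-71.

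IGFBP3, a secreted binding protein of insulin-like growth factors and a gene of the YAP and TAZ signature, was absent or nearly so in TC-71, with at most 3 counts in any library. Its log2 fold change was 4.79 for TC-32 and 6.65 for A673, both called (edgeR adjusted p = 1.78e-28 and 3.77e-16). In A673 the rise of IGFBP3 started from 34 to 65 counts in the siNeg libraries. The gene was chosen for mention after its values were seen.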
